A study of Homo sapiens with 20 samples.

Results

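The cytosolic ribosomal protein genes are the genes for the proteins of the small and large subunits of the ribosome outside the mitochondria. Their members were taken by symbol from the deposited gene records: 92 coding records matched, and the record with the highest mean level was kept for each symbol, which left 85 genes among 38369 records, of which 20237 were coding. Of the 85, 77 were core genes, 31 of the small subunit and 46 of the large subunit with the stalk genes RPLP0, RPLP1 and RPLP2. The other 8 were paralogs whose symbols end in L, AL or L1 (RPL3L, RPL7L1, RPL10L, RPL22L1, RPL26L1, RPL36AL, RPL39L and RPS27L). No measured change was used to choose them.

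The polyadenylated RNA came from neural progenitor cells made from the long-used embryonic stem cell line H1, so all samples share 1 line and carry no edited allele. Progenitors grew on Matrigel in medium with the growth factor FGF (day 0). Neuronal differentiation was begun by taking FGF away and adding the neurotrophic factor BDNF, and cultures were collected at days 1, 2 and 4. Cells for days 5, 11 and 18 were moved at day 4 to wells coated with Poly-D-lysine and laminin, so replating falls between day 4 and day 5. The labels list 20 cultures, 3 on each day and 2 on day 5, where a culture was removed as an outlier.

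Levels are FPKM, fragments per length of transcript and per mapped fragments. The deposited values hold 1 pooled level per gene and day, with no column for a single culture, so none of the values below has a replicate error and no difference was tested here. The depth behind each level is unknown. A change is given as the difference of log2(FPKM + 0.1), either as deposited or relative to the median change of the 11793 coding records with a mean of at least 1 FPKM. The pseudocount understates the change of genes near 0. This reference fell by 0.60 on the log2 scale from day 0 to day 18 and by 0.07 from day 0 to day 4 as deposited, so the scale matters most at day 18.

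In the labelled cell type, the 7 neuron markers summed to 343 FPKM on day 0 and 1267 on day 18. STMN2 alone had 32.3 and 727 of these, and MAP2 and DCX were also higher on day 18, while GAP43 had 193 and 173. On day 18, 7 of 7 were above the reference, GAP43 by 0.45 although it changed by -0.15 as deposited. The progenitor markers NES, SOX2, PAX6, MSI1, VIM, HES1 and PROM1 summed to 3694 FPKM on day 0 and 1799.8 on day 18. VIM alone had 2948 and 1493 of these, while PAX6 had 4.31 and 10.4. The 5 cell cycle markers measured here summed to 589.9 and 125. Pluripotency markers POU5F1 and NANOG and the astrocyte markers GFAP, AQP4 and ALDH1L1 had means under 1 FPKM. The mesenchymal markers COL1A1, COL3A1 and POSTN summed to 250.4 FPKM on day 0 and 30.7 on day 18, nearly all of it from COL3A1, while COL1A1 was listed at 0 on every day. The part of these changing markers in the levels below was not tested. In bulk RNA, fewer cells of a type and less RNA per cell cannot be told apart.

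Ribosomal proteins are made in amounts that match one another and assemble on ribosomal RNA in the nucleolus before the subunits are exported. Most of their mRNAs begin with a C followed by a run of pyrimidines, the terminal oligopyrimidine (TOP) motif, through which the kinase complex mTORC1 and the protein LARP1 control their translation. Dividing progenitors need many new ribosomes, and the output of ribosome synthesis is commonly lower in cells that leave the cycle.

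Most core genes with a known start site had the TOP motif there. Windows of 30 bases, 10 before and 20 from the RefSeq start site, are shown for RPS6, which carries a typical motif, for 3 gene and paralog pairs whose levels parted over the time course, and for RPS26, the core gene lowest relative to day 0. Capitals mark a run that begins with C, goes on for at least 4 more C or T bases and starts within 5 bases of the start site, taken at the C nearest to it. Other pyrimidines, such as runs that begin with T, stay in lower case.
RPS6: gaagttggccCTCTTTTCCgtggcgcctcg
RPS27: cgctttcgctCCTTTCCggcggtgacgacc
RPS27L: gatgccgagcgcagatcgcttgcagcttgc
RPL22: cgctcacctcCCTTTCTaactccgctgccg
RPL22L1: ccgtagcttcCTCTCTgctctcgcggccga
RPL36A: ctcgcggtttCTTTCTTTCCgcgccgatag
RPL36AL: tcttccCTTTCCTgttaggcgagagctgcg
RPS26: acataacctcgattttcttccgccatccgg
The windows were taken from RefSeq promoters (GRCh38.p14) and placed by exact match on GRCh37, the build of the deposited records. They lie at chr9:19380215-19380244 (minus strand) for RPS6, chr1:153963228-153963257 (plus) for RPS27, chr15:63449657-63449686 (minus) for RPS27L, chr1:6259636-6259665 (minus) for RPL22 and chr3:170587965-170587994 (minus) for RPL22L1. The others lie at chrX:100645989-100646018 (plus) for RPL36A, chr14:50087325-50087354 (minus) for RPL36AL and chr12:56435692-56435721 (plus) for RPS26. Each window spans the last bases before the gene and the first transcribed bases of its leader.

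A C at the start site followed by at least 4 more C or T bases, read on the strand of the gene, was present in 46 of the 62 core genes with a RefSeq promoter (74.2%), and in 1404 of 27305 promoters by symbol (5.14%). Among the 6 paralogs with a promoter entry it was present in 1, RPL22L1. Allowing the run to begin within 5 bases of the start site gave 53 core genes (85.5%), 2 paralogs and 25.2% of all promoters. A match of these letters is a description of the window. The 46 core genes with the motif at the start site had a median relative change of 0.56 on day 4 and 0.27 on day 18. The 9 core genes with a promoter but no such run within 5 bases had 0.45 and 0.31. The 7 with a run within 5 bases but not at the start site had 0.68 and 0.45. The medians of the 46 and the 9 lay close together, and those of the 7 were the highest of these groups.

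The ribosomal protein genes were among the most abundant of the coding records. They made up 41 of the 100 coding records with the highest mean FPKM, and 64 of the 77 core genes had a mean of at least 100 FPKM. RPL41, which encodes the smallest and most basic ribosomal protein, had the highest mean, with 1823, 1849, 2125, 2261, 1874, 1662 and 1051 FPKM on the 7 days in turn. RPS6, the target of the S6 kinases downstream of mTORC1, had 1322, 1446, 1807, 2058, 1631, 1556 and 949.5 FPKM. Both genes were highest on day 4 and lowest on day 18. RPL11 and RPL37A came next by their means, at 1215 and 1111 FPKM. The 5 most abundant genes held 20.4% of the summed level of the 85, and the 20 most abundant held 56.1%.

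At the other end, RPL10L and RPL3L, paralogs known from testis and from heart and skeletal muscle, were near 0 on every day, with means of 0.00464 and 0.0024 FPKM. RPL22L1 and RPL26L1 had means of 5.51 and 12.2 FPKM. The lowest core gene was RPS28, with a mean of 12.4 FPKM, and 7 core genes had a mean under 50. Levels per length therefore spanned 145.5 times between RPL41 and RPS28, whereas the proteins they encode are held in matched amounts in the ribosome.

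Some low core genes have many named pseudogenes, copies that can share reads with the parent gene, and others have few. Of the 7 with a mean under 50 FPKM, RPL12 has 50, RPL36A 52, RPS26 36, RPS27 30 and RPL9 20. The other genes of these 7, RPL27A and RPS28, have 4 and 5. The annotation names between 1 and 133 pseudogenes per core gene (median 14). The 37 core genes with more than 14 had a median level of 208 FPKM, and the 40 with 14 or fewer had 524 FPKM. Across the 77 core genes, which share the same pooled libraries and are not independent, Spearman's rho between the number of pseudogenes and the mean level was -0.42 and Pearson's r with the log2 level was -0.30. The part of reads lost to copies was not tested.

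The record for RPLP0 lies at chr2:38708926-38710087, where the annotation has the processed pseudogene RPLP0P6, and had a mean of 608 FPKM against 246 at the parent gene, chr12:120634510-120639014. The record for RPSA lies at chr19:23945816-24010917, the place of the retrogene RPSA2, and had a mean of 489 FPKM against 148 at the parent gene, chr3:39448204-39454030. The copies share runs of 328 and 353 bases with their parents, longer than a sequencing read, so reads cannot be divided between them with certainty. The records for RPL13A and RPL17 were merged with neighbouring genes.

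**Figure D1:**
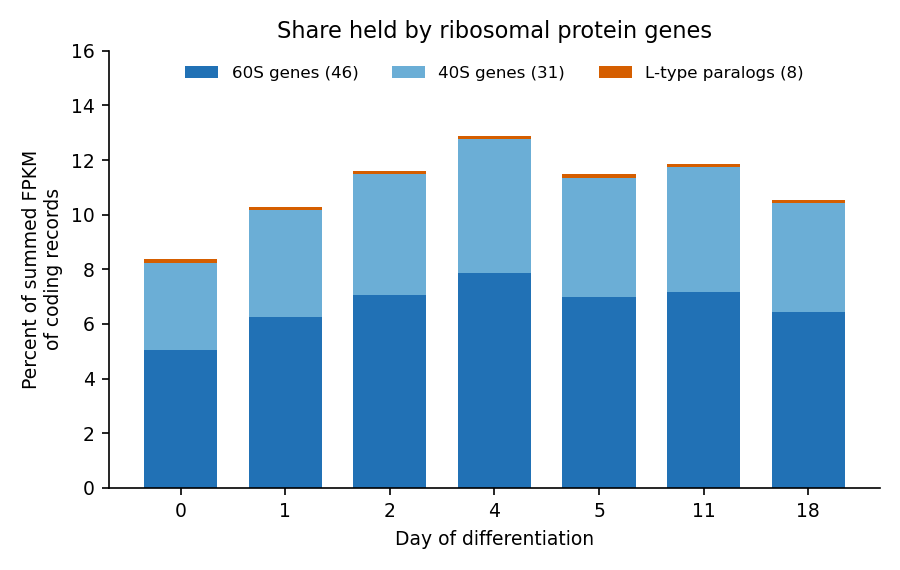
Percent of the summed FPKM of all coding records (y axis) held by the large subunit genes (labelled 60S), small subunit genes (40S) and paralogs on each day (x axis), with 1 pooled value per day. The stacked bars go from 8.38% on day 0 to 12.9% on day 4 and 10.5% on day 18, and the paralogs are a thin band on top.

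The share of the ribosomal protein genes in the summed FPKM of coding records was 8.38% on day 0, 10.3% on day 1, 11.6% on day 2, 12.9% on day 4, 11.5% on day 5, 11.9% on day 11 and 10.5% on day 18. Every later day was above day 0, and day 4 was the highest, as the stacked bars of the share by day show. The summed level of the 85 genes was 30064 FPKM on day 0, 41461 on day 4 and 22738 on day 18. That of all coding records was 358744, 321601 and 216151 FPKM. From day 0 to day 4 the sum of the ribosomal protein genes was thus multiplied by 1.38 while that of the other coding records was multiplied by 0.852. From day 0 to day 18 both were lower, with factors of 0.756 and 0.588.

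Small and large subunit genes moved side by side. The 31 small subunit genes held 3.18% on day 0, 4.91% on day 4 and 4.01% on day 18, and the 46 large subunit genes held 5.06%, 7.86% and 6.43%. The 8 paralogs went the other way, from 0.139% on day 0 to 0.123% on day 4 and 0.0877% on day 18.

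**Figure D2:**
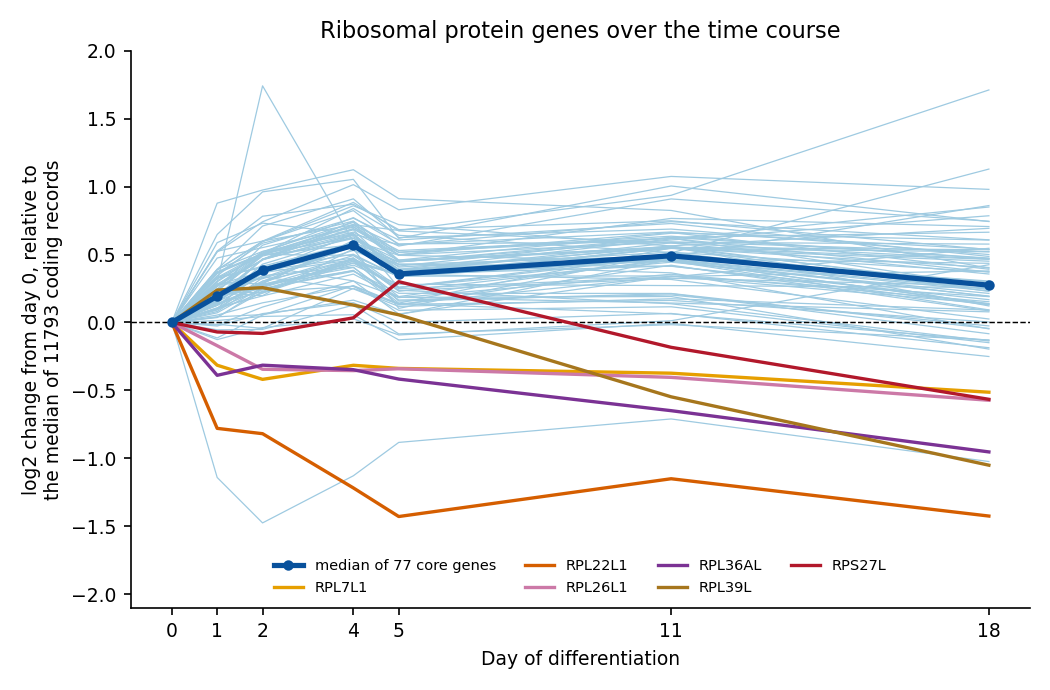
Change of log2(FPKM + 0.1) from day 0, relative to the median of 11793 coding records (y axis), by day (x axis). Thin lines are the 77 core genes, the thick line with points is their median, and coloured lines are the 6 expressed paralogs. The core median is highest on day 4 at 0.57, and on day 18 the 6 paralogs lie between -0.51 and -1.42.

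Gene by gene, most core genes moved in the same direction, with a wider spread on day 18 than on day 4. Their median change from day 0, relative to the coding reference, was 0.19 on day 1, 0.38 on day 2, 0.57 on day 4, 0.36 on day 5, 0.49 on day 11 and 0.27 on day 18, which is the thick line in the plot of changes by day. On day 4, 76 of 77 core genes lay above the reference, 46 of 46 in the large subunit and 30 of 31 in the small, and RPS26 was the exception. The quartiles of the core changes were 0.42 and 0.69 on day 4 and 0.13 and 0.52 on day 18. As deposited the core medians were 0.50 on day 4 and -0.32 on day 18. The direction on day 4 is therefore the same on both scales, while that on day 18 turns: levels on day 18 were mostly lower than on day 0 in FPKM, but less so than those of the median record of this reference. Against all coding records above 0 on any day, which include very low ones, the median of the 85 genes on day 18 was -0.071.

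By adjacent days, the 85 genes had median steps relative to the reference of 0.18, 0.16 and 0.15 up to days 1, 2 and 4, with 73, 77 and 75 of 85 genes above the reference, where 50.0% of coding records lie by construction. The step from day 4 to day 5, across the replating, was -0.19, and 4 of 85 genes lay above the reference. The later steps were 0.09 to day 11, with 64 genes above, and -0.19 to day 18, with 12 above. As deposited the step to day 11 was -0.07.

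**Figure D3:**
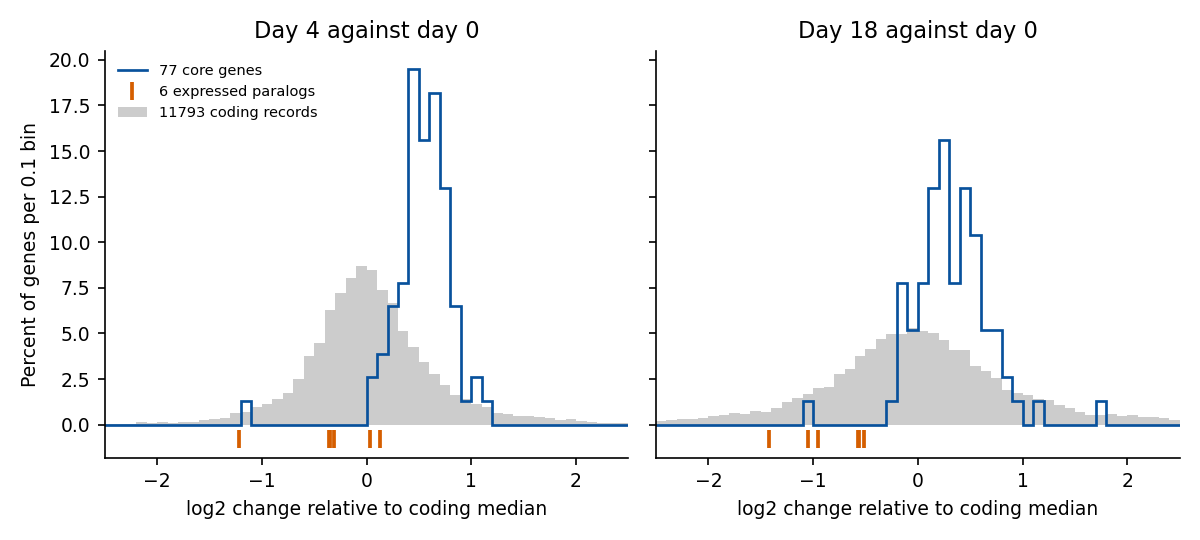
Percent of genes per bin of 0.1 (y axis) by change of log2(FPKM + 0.1) relative to the coding median (x axis), for day 4 (left) and day 18 (right) against day 0. Grey bars are 11793 coding records, with changes past the axis not shown, the blue line is the 77 core genes, and ticks below 0 are the 6 expressed paralogs. Core genes pile up near 0.57 on day 4 and spread around 0.27 on day 18, inside the wider range of all records.

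A gene was counted as higher or lower when it differed from the reference by at least 0.5 on the log2 scale. On day 4 against day 0, 45 of 85 ribosomal protein genes (52.9%) were higher, against 18.1% of coding records, and 2 of 85, RPS26 and RPL22L1, were lower, against 15.3%. The highest core changes on day 4 were those of RPL13A (1.12, in a merged record), RPL3 (1.05), RPL22 (1.01) and RPL5 (0.91). The level relative to the reference was highest on day 4 in 49 of 85 genes (57.6%), compared with 5.96% of coding records.

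On day 18 against day 0 the share of higher genes was close to the background. There were 23 of 85 (27.1%) against 27 percent of coding records, and 2 of the 23 were RPL3L and RPL10L, which are near 0 and pass because the falling reference was subtracted. Lower genes were fewer than in the background, 7 of 85 (8.24%) against 25.8%, and these were the 6 expressed paralogs and RPS26. From day 4 to day 18, 3 genes were higher against 19.2% of coding records, namely RPS27, RPS28 and the near-zero RPL10L, and 14 of 85 (16.5%) were lower against 16.3%.

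The 5 highest relative changes to day 18 among expressed members were those of RPS27, RPS28, RPL22, RPL12 and RPL7. RPS27, a zinc finger protein of the small subunit, had 11.5, 15.4, 16.9, 18.2, 16.7, 17.7 and 25.1 FPKM on the 7 days, and a relative change of 1.71. RPS28 had 10.7, 11.5, 11.8, 14.9, 10.4, 12.2 and 15.5 FPKM and a relative change of 1.13. Unlike most core genes, both were highest on day 18 in FPKM. RPL22, RPL12 and RPL7 had 0.98, 0.86 and 0.85. RPL7 had a single high day, with 125 FPKM on day 2 between 44.2 on day 1 and 55.8 on day 4. The annotation names 30 pseudogenes for RPS27, 5 for RPS28, 22 for RPL22, 50 for RPL12 and 61 for RPL7.

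RPS26, a small subunit protein near the exit of the mRNA channel, was the only core gene lower by the fold on day 18. It had 42.6, 17.9, 14.7, 18.5, 20.8, 20.7 and 13.8 FPKM, so most of the difference was present on day 1, and the relative changes were -1.13 on day 4 and -1.02 on day 18. The window of RPS26 shown above holds no run that begins with C within 5 bases of its start site, although a run that begins with T lies just after it, and 36 pseudogenes are named for it.

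Among core genes by level, the 13 with a mean under 100 FPKM had a median relative change of 0.46 to day 18, the 37 between 100 and 500 had 0.40, and the 27 above 500 had 0.19. On day 4 the same groups had 0.53, 0.58 and 0.56. The spread between low and high genes was therefore seen late and not on day 4.

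Some members have roles beyond the ribosome or in disease. RPL5 and RPL11, which as a complex with a small ribosomal RNA bind the p53 regulator MDM2, had 332 and 1131 FPKM on day 0, 594 and 1515 on day 4, and 310.0 and 877 on day 18. RPS19, the gene most often mutated in Diamond-Blackfan anaemia, had 432, 700.5 and 399 FPKM on these days. The 3 genes had relative changes of 0.91, 0.49 and 0.77 on day 4 and 0.50, 0.23 and 0.49 on day 18, and their changes to day 18 turn to -0.10, -0.37 and -0.11 as deposited.

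The products of the stalk genes recruit elongation factors to the large subunit. RPLP1 and RPLP2 had relative changes of 0.25 and 0.27 on day 4 and of 0.09 and 0.00 on day 18, below the core medians of 0.57 and 0.27. RPLP0 had 0.65 and 0.13 at the pseudogene record and 0.59 and 0.32 at the parent gene. RPSA, a small subunit protein also described as a laminin receptor precursor, had 0.06 and -0.25 at the retrogene record and 0.04 and -0.07 at the parent gene.

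**Figure D4:**
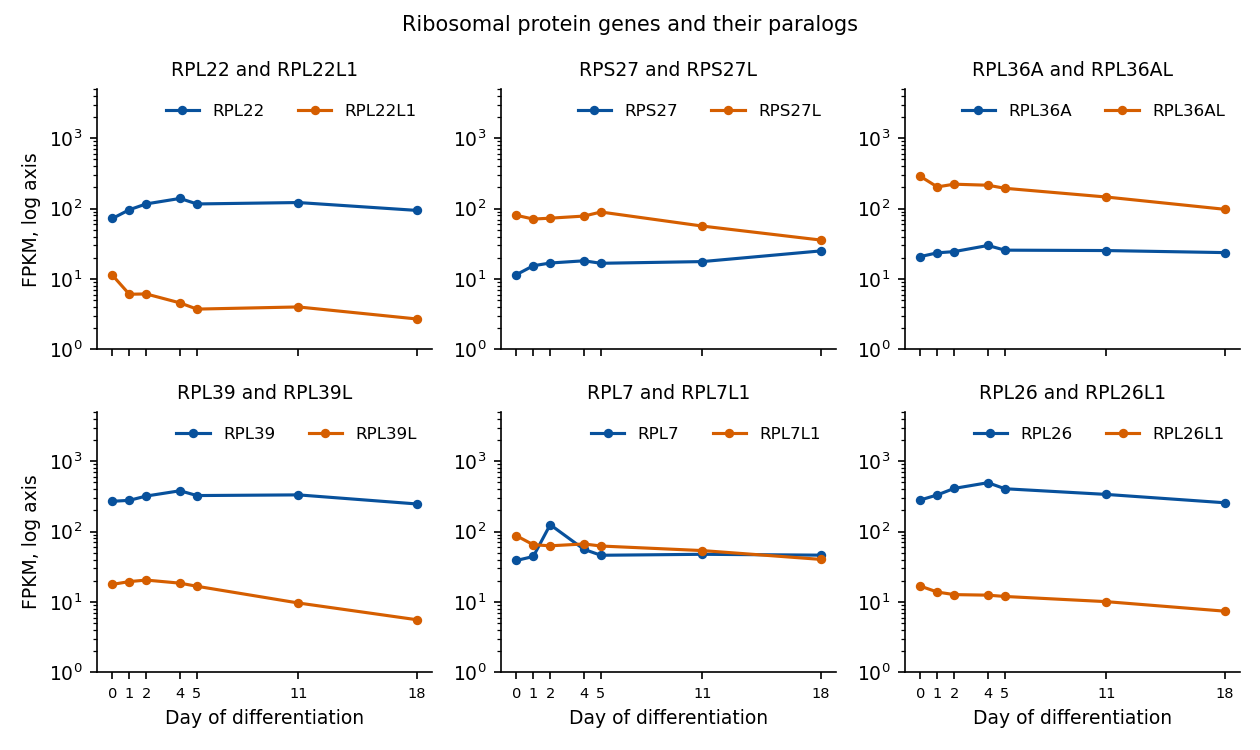
Pooled FPKM on a log axis (y axis) by day (x axis) for the 6 ribosomal protein genes (blue) and their expressed paralogs (orange). In each panel the paralog ends lower on day 18 than on day 0; RPS27 and RPL36A stay below their paralogs, and RPL7 lies above RPL7L1 on days 2 and 18.

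The paralogs parted from their partner genes. The 6 expressed paralogs had a median relative change of -0.33 on day 4, -0.48 on day 11 and -0.76 on day 18, and 6 of 6 lay below the reference on days 11 and 18. The ratio of a gene to its paralog within a day is free of the scaling between days. From day 0 to day 18 it was higher for all 6 expressed pairs.

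RPL22 and RPL22L1 differed most. RPL22 had 72.5, 96.4, 117, 139.5, 117, 122 and 94.4 FPKM and RPL22L1 had 11.3, 6.08, 6.14, 4.58, 3.74, 4.01 and 2.71 FPKM. The ratio RPL22 to RPL22L1 was 6.40 on day 0, 30.5 on day 4 and 34.8 on day 18, so the log2 ratio had moved by 2.23 by day 4 and by 2.40 by day 18. Of the 6 paralogs with a promoter entry, RPL22L1 is the one whose run begins with C at the start site. In RPL36AL a longer pyrimidine stretch covers the start site.

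RPS27L had a higher FPKM than RPS27 on every day. The annotation names 30 pseudogenes for RPS27, 52 for RPL36A and 0 for RPS27L and RPL36AL, and the part of reads shared with such copies in these levels was not tested. RPS27L had 80.4, 71.1, 73.2, 78.4, 89.5, 56.5 and 35.8 FPKM, and the ratio RPS27 to RPS27L was 0.144 on day 0, 0.232 on day 4 and 0.700 on day 18. Here the shift came late, with RPS27L lower from day 11 on.

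RPL36AL was likewise above RPL36A throughout. RPL36A had 20.8 FPKM on day 0 and 23.7 on day 18, while RPL36AL had 287 and 97.9, and the ratio RPL36A to RPL36AL was 0.0726 and 0.243. RPL39L, known for its level in testis and stem cells, had 17.7 FPKM on day 0, 18.5 on day 4 and 5.59 on day 18. The ratio RPL39 to RPL39L was 15.1, 20.5 and 44.1 on these days, another late shift.

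RPL7 and RPL7L1 had a ratio of 0.446 on day 0 and 1.15 on day 18, and RPL26 and RPL26L1 of 16.7 and 34.7. The changes of the 6 ratios on the log2 scale were 2.40 for RPL22, 2.28 for RPS27, 1.74 for RPL36A, 1.52 for RPL39, 1.36 for RPL7 and 1.04 for RPL26. The coding sequences of the 6 pairs are identical over 56.0% (RPL7) to 94.9% (RPL39) of aligned bases, and the longest shared run is 67 bases, shorter than a sequencing read.

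Profiles over the 7 days were compared among core genes. Pearson's r of log2 level with the median of the other core genes had a median of 0.93, and it was at least 0.9 for 49 of 77, over 7 pooled points that share libraries and depth. Of the 11793 coding records, members included, 1.75% reached this r with the core median. The lowest were RPS26 (-0.19), RPS27 (-0.18), RPS28 (-0.07) and RPL9 (0.18). Outside the records of the members, 5230 coding records were compared with the median member profile over the same 7 points. They had a mean of at least 10 FPKM and a range of at least 0.5. The most alike were RPL14P1 (0.989), OGG1 (0.989), DSE (0.988), BOD1 (0.980) and CHML (0.980). PIGU, ZNF90, a record without a symbol, the merged record of IFI30 and PIK3R2, and DDT followed, all at 0.973 or 0.974. RPL14P1 has the name of a pseudogene of the member RPL14 and had 510 FPKM on day 0, against 177 for RPL14. The part of reads shared between them was not tested.

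**Figure D5:**
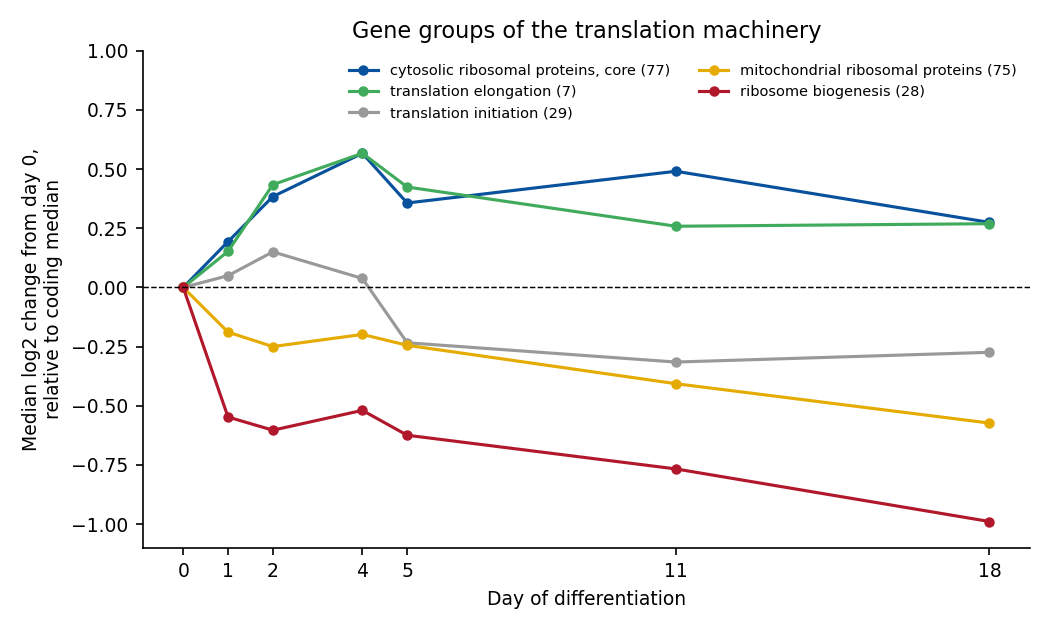
Median change of log2(FPKM + 0.1) from day 0 relative to 11793 coding records (y axis) by day (x axis), for the core ribosomal protein genes and 4 gene lists of the translation machinery, with the number of expressed records in brackets. Ribosomal protein and elongation genes lie above the dashed reference from day 1 on, ribosome biogenesis and mitochondrial ribosomal protein genes below it.

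Other genes of the translation machinery showed which of them moved with the ribosomal proteins, as the plot of group medians shows. Of 7 elongation records, 1 carries the symbols of both EEF1A1 and EEF1A2, so no level is given for EEF1A2 alone. The median relative change of the 7 was 0.57 on day 4 and 0.27 on day 18. The record with both symbols, for the factor that brings tRNA to the ribosome, had 1108 FPKM on day 0, 3124 on day 4 and 1389 on day 18. EEF1G had 946, 1386 and 1050.4 FPKM on these days. EEF2, the translocase, had 547 FPKM on day 0, 1146 on day 4 and 811 on day 18, with relative changes of 1.14 and 1.17. EIF5A, which relieves stalled ribosomes, had 271, 112 and 62.3 FPKM and relative changes of -1.21 and -1.52. By the fold, 4 of the 7 records were higher and 1 lower on day 4, and 3 were higher and 2 lower on day 18. The coding background is 18.1% higher and 15.3% lower on day 4, and 27% higher and 25.8% lower on day 18. The counts of lower records lay near that background.

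The 5 listed genes of ribosome-bound and related factors, among them FAU, GNB2L1, NACA and BTF3, had medians of 0.38 and 0.10, with 1 higher and 0 lower on day 4 and 0 either way on day 18. GNB2L1, which encodes the scaffold RACK1 on the small subunit, had 992 FPKM on day 0, 1379.9 on day 4 and 701 on day 18. On day 18 FAU had the most positive change (0.20) and BTF3 the most negative (-0.14). Of 29 initiation factors, 6 were higher and 6 lower on day 4, and 6 higher and 12 lower on day 18, with medians of 0.04 and -0.27. Of coding records, 18.1% and 15.3% were higher and lower on day 4, and 27% and 25.8% on day 18. EIF4G2 and EIF1 were the most abundant, at means of 395 and 342 FPKM. EIF4A2, a helicase, had the most positive change to day 18 (1.37) and EIF4G1, the scaffold of the cap-binding complex, the most negative (-1.21).

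The genes that build ribosomes lay below the reference, while the core ribosomal protein genes lay above it. Of 28 ribosome biogenesis genes, 0 were higher and 15 lower on day 4, and 0 were higher and 26 lower on day 18, where the coding background is 18.1% higher and 15.3% lower on day 4 and 27% higher and 25.8% lower on day 18. The medians were -0.52 and -0.99. As deposited they were -0.59 and -1.59, so on day 18 both groups were lower than on day 0 in FPKM. The nucleolar protein NCL had 454 FPKM on day 0, 282 on day 4 and 159.8 on day 18, and NPM1 had 352, 312 and 128. UTP20, of the small subunit processome, had the most negative change to day 18 (-1.68) and SBDS, which frees the large subunit for use, the least (-0.19). The median was already -0.55 on day 1, when that of the core ribosomal protein genes was 0.19.

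The 75 mitochondrial ribosomal protein genes, which build the separate ribosome of that organelle, had medians of -0.20 on day 4 and -0.57 on day 18. Of these, 1 was higher and 6 lower on day 4, and 0 were higher and 45 lower on day 18, against the same background. MRPL51 and MRPS21 were the most abundant, at means of 126 and 93.9 FPKM, and the changes to day 18 went from -1.34 for MRPL12 to 0.31 for MRPS25. The start-site run of pyrimidines described above was present in 5 of 66 of their promoters (7.58%), 4 of 23 of the biogenesis genes (17.4%), 7 of 22 of the initiation factors (31.8%), 4 of 6 of the elongation genes and 4 of 4 of the ribosome-bound and related factors. It was also present in 2 of 10 of the RNA polymerase I list, 1 of 8 of the MYC family and 0 of 12 of the mTORC1 list.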

How the data were processed

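The series holds 20 RNA-Seq samples in 7 groups by day, taken from the titles. Per the study's methods and the labels, the authors used TopHat2 for alignment to hg19, Cufflinks for assembly and Cuffdiff2 at default options for levels; versions are not given in the sources used here. The deposited FPKM values are 1 per record and day, each pooled by the authors from the cultures collected then, so depth and replicate error are unknown. Columns of other samples numbered 0. Deposited coordinates gave each record's place. The authors' table of adjacent days (fold changes, test statistics, p and q values) was not used.

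With Python 3.11.15, pandas 2.3.3, numpy 2.4.6 and matplotlib 3.10.9, members were matched by symbol, changes were computed on log2(FPKM + 0.1) and centred on the median of coding records with a mean of at least 1 FPKM, and a difference of 0.5 was used as the fold. The code was tested on simulated data. The planned limma fit on single samples was replaced by these values, since the files hold pooled levels. Named were the 5 genes at each end of mean level and of change to day 18 (the latter with a mean of at least 1 FPKM), paralogs with partners, stalk genes, RPSA, RPS19, RPL5, RPL11, RPS6, the 10 records most alike in profile, and for each list the genes at its ends. RPL13A, RPL9, RPL27A, MYC, MYCL1, LARP1 and the haplotype records of RPS18 were named after their values were seen. A member named by the rule is not reported here. The members and lists were chosen with earlier results of these data known. Alternatives were the scaling, pseudocount, reference, record choice, members and fold.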

Additional observations from a re-analysis of the deposited data

How the results depend on the processing

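No paired analysis was possible because the labels' replicate numbers belong to cultures whose values are pooled into 1 level per day, and for the same reason neither the replicate block, limma nor leaving out a replicate was run. The values used here carry no replicate error or depth, and the authors' own tests were not used. The median change to day 4 (0.54 over all 85 genes) was positive under every alternative run, from 0.47 as deposited to 0.80 against non-member records with a mean of at least 100 FPKM, a reference added after seeing the data. The median change to day 18 (0.27) depends on the reference: it was -0.33 as deposited, -0.071 against all coding records above 0 on any day, 0.38 with days scaled to the same sum, 0.39 against records of at least 10 FPKM and 0.64 against those of at least 100. The cause was not tested.

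The step to day 1 (0.18) was 0.075 as deposited and 0.078 against all coding records, 0.29 with equal sums and 0.42 against records of at least 100 FPKM. The step to day 11 turned to -0.074 as deposited, and the step to day 18 (-0.19) was -0.47 as deposited, -0.31 against all coding records and -0.059 against records of at least 100 FPKM. The 23 higher and 7 lower genes on day 18 became 2 and 24 as deposited, 35 and 4 against records of at least 10 FPKM, 59 and 4 against those of at least 100, and 2 and 3 at a fold of 1. There were 6 higher against all coding records, 4 lower with equal sums and 1 lower among core genes alone. Apart from the main setting, the share of coding records past the fold was not computed. The counts under other settings are therefore not read as results about the ribosomal protein genes. The share of all records, noncoding ones included, was 7.26, 8.84, 9.86, 11.0, 9.79, 10.1 and 9.05% on the 7 days. Without RPL41 and RPS6 the coding share was 9.22, 10.4, 11.5, 10.3 and 10.7% on days 1, 2, 4, 5 and 11. On days 0 and 18 it was lower by less than 1 point than the 8.38 and 10.5% with them.

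For single genes, the change to day 18 turned negative as deposited for RPL10 (-0.064), RPL11 (-0.37), RPL26 (-0.13), RPL37A (-0.43), RPL39 (-0.12), RPL5 (-0.10), RPLP0 (-0.47), RPLP1 (-0.51), RPLP2 (-0.59), RPS19 (-0.11) and RPS6 (-0.48). Against all coding records it turned for RPL11 (-0.11), RPL37A (-0.17), RPLP0 (-0.21), RPLP1 (-0.25), RPLP2 (-0.34) and RPS6 (-0.22), and with a pseudocount of 1 for RPLP2 (-0.066). Against records of at least 100 FPKM, RPL41 (0.17) and RPSA (0.12) turned positive.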

Other observations

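Regulators known to act on ribosomal protein and ribosomal RNA genes were read in the same way. Of the 11 genes of RNA polymerase I and its factors, 0 were higher and 5 lower by the fold on day 18, with medians of -0.12 on day 4 and -0.40 on day 18. Of coding records, 27% were higher and 25.8% lower on day 18. Among these UBTF and POLR1D were the most abundant, at means of 41.5 and 38.8 FPKM, and the changes to day 18 went from -0.68 for POLR1C to 0.42 for POLR1D. MYC, an activator of ribosome synthesis, had 15.99 FPKM on day 0, 9.14 on day 4 and 6.61 on day 18. MYCN had 26.0, 20.0 and 10.2 FPKM on these days. MYCL1, of the same family, went the other way, with 5.96, 16.8 and 9.46 FPKM. The relative changes of MYCL1 were 1.55 on day 4 and 1.26 on day 18. MAX, the partner of MYC, had 15.2, 19.3 and 15.4 FPKM. MXI1, which opposes MYC at its sites, had 5.34, 12.03 and 16.8 FPKM. Of the 9 genes of the MYC family list, 6 were higher and 3 lower on day 18, with a median of 0.88 (0.28 as deposited).

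Among 15 genes of mTORC1 and the control of TOP mRNAs, 3 were higher and 3 lower on day 18, shares of the list no larger than those of all coding records, with medians of -0.08 on day 4 and -0.11 on day 18. EIF4EBP1, which holds back cap-dependent translation, had 81.7, 127 and 19.6 FPKM on days 0, 4 and 18, and DDIT4, an inhibitor of mTORC1, had 35.5, 92.1 and 64.0 FPKM. LARP1 had 69.4, 64.4 and 37.1 FPKM.

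The 4 records of RPS18 on alternative haplotypes were listed at 0 on every day.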
